A study of Mus musculus with 8 samples.

Results

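The enzymes that build and remodel phosphatidylcholine and phosphatidylethanolamine, the most abundant phospholipids of liver membranes, were followed through their mRNA in livers of male db/db mice. The set holds 10 genes taken by symbol, Chka, Chkb, Pcyt1a, Pcyt2, Chpt1, Cept1, Lpcat3, Etnk2, Ptdss1 and Pisd. All 10 were found among the 21532 genes of the table and among the 15989 genes that averaged 10 or more normalized counts and were tested. A normalized count is the number of reads of a gene divided by a factor for the depth of its library. The groups were 4 db/db mice given control and 4 given AF1 peptide. AF1 peptide is a synthetic peptide derived from ERα and joined to a TAT sequence that carries it into cells. Both groups were dosed by retro-orbital injection from 8 weeks of age, with 5 mg of control or AF1 peptide per kg in each of 2 weekly injections over 5 weeks. All mice were db/db on a C57B/6 J background, that is, without a working leptin receptor, obese and diabetic, and no lean mice were compared here. Each library came from the liver of 1 mouse.

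In the CDP-choline and CDP-ethanolamine routes, choline or ethanolamine is phosphorylated by a kinase, activated with CTP by a second enzyme and joined to diacylglycerol by a phosphotransferase. This CTP-dependent step is regarded as the slow step of both routes. Liver can also make phosphatidylcholine by methylating phosphatidylethanolamine with PEMT, and mitochondria make phosphatidylethanolamine from phosphatidylserine. LPCAT3 afterwards places polyunsaturated acyl chains in phospholipids, which is known to matter for the loading of very-low-density lipoprotein.

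No difference between AF1 peptide-treated and control livers was detected in any of the 10 genes. In limma, 0 of 10 had an unadjusted p value under 0.05, against 6.19% of all genes tested. After Benjamini-Hochberg adjustment over all genes tested their p values ran from 0.774 (Chkb) to 0.994 (Pcyt1a). Of all genes tested, 0 passed adjustment in limma, where 990 had an unadjusted p value under 0.05, and 0 passed in edgeR and 3 in DESeq2. The groups overlapped in all 10 genes, and were free of overlap in 3.9% of all genes tested. The log2 fold change (AF1 peptide over control) was below 0 in 6 of the 10 and above 0 in 4, with a median of -0.033, where the median of all genes tested was -0.0083. For Pcyt1a, Cept1 and Ptdss1 the 95% confidence interval excluded a 1.3-fold change either way, as it did in 24.9% of all genes tested. A 2-fold change either way was outside the interval of 8 genes, all except Chkb and Etnk2.

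Depth ran from 35260283 to 45117528 reads per control library and from 23031880 to 43978158 per AF1 peptide library. AF1 peptide replicate 1 stood apart from the other libraries. It was the highest or lowest of the 8 in 49.3% of all genes tested, against 12.7 to 33.4% for each of the others, and in 5 of the 10 phospholipid genes. Its mitochondrial share of reads was the lowest of all at 20.8%, against 22.4 to 37.8%. The summed normalized counts of the hepatocyte markers (7 of 8 measured) were 2414186 to 2514972 in control mice and 1602873, 2524749, 2098187 and 2285759 in AF1 peptide replicates 1 to 4, so that replicate 1 was the lowest, replicates 3 and 4 were also below every control, and replicate 2 was above. Alb, the liver's main secreted protein, made up 72.1 to 81.4% of this sum, and the markers did not move together, since Cps1, Fgb and Hnf4a were highest of all in AF1 peptide replicate 1. Results that depend on this mouse are given with and without it. In bulk tissue, fewer cells of a type and less RNA per cell cannot be told apart.

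The promoters of Etnk2, the member with the widest range over the 8 mice, and of Pcyt1a, the steadiest member among control mice, are shown. Of the 10 genes, 8 have start sites in the RefSeq promoter table (GRCm38.p6), 13 in all, and Pcyt2 and Ptdss1 have no entry. The 250 bases before the start run 5′ to 3′ on the strand of the gene, for Etnk2 at chr1:133363322-133363571 (plus strand) and for the first listed start of Pcyt1a at chr16:32430671-32430920 (plus strand). Capitals mark exact matches on either strand to the motifs searched.
Etnk2: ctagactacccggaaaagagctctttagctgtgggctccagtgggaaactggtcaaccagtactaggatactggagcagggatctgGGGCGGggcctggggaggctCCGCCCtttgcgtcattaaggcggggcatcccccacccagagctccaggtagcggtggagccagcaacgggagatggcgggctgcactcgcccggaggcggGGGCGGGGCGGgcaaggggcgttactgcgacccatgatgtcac
Pcyt1a: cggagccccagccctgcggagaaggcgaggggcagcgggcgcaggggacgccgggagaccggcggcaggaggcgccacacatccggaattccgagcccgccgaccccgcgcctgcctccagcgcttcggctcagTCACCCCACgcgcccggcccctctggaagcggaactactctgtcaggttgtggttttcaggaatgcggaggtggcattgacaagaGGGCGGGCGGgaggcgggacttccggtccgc
The motifs were the GC box GGGCGG, the CCAAT box, the E-box CACGTG, the TATA box TATAAA, the forkhead motif GTAAACA, the sterol regulatory element TCACNCCAC and the DR4 element, a direct repeat of the kind LXR binds. Genes with several starts were counted if any of their windows matched, while the share over all promoters is per window. GGGCGG stood before 7 of the 8 genes, in 9 of their 13 windows and in 32.7% of all 32851 promoter windows of this length, and overlapping copies of it make the longest run of capitals in both sequences. CCAAT stood before 5 of the 8, in 5 of the 13 windows (33.8% of all windows), and TATAAA before Chkb alone, in 1 window (12.4%). TCACNCCAC stood before Pcyt1a alone, in 2 of its overlapping windows, and in 1.05% of all windows. The E-box, the forkhead motif and DR4 had 0 matches in the 8 genes, against 6.02, 3.17 and 0.0152% of windows. A match is a run of letters, and binding was not measured.

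The mRNA levels of the 10 genes differed widely. Compared as normalized counts per kb of exon, Pcyt2, the CTP-dependent enzyme of the ethanolamine route, stood highest, with a median level of 16917 per kb over the 8 mice (range 13923 to 20233). Etnk2, an ethanolamine kinase, and Lpcat3 followed with median levels of 2122 and 1993 per kb, and their ranges overlapped. Chka, Chpt1 and Cept1 came next at 399, 334 and 333 per kb, each overlapping its neighbor. Pcyt1a and Ptdss1 had overlapping levels around 227 and 212 per kb. Pisd had 123 per kb and Chkb, the lowest, 9.37 per kb, and both levels are uncertain because other annotated genes share their exon bases on the same strand. Neighbors in this order were free of overlap at 5 steps, from Pcyt2 to Etnk2, Lpcat3 to Chka, Cept1 to Pcyt1a, Ptdss1 to Pisd and Pisd to Chkb. The length counts every exon of the basic GENCODE M21 transcripts, so that the level of a gene with a long, rarely used exon is understated.

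**Figure D1:**
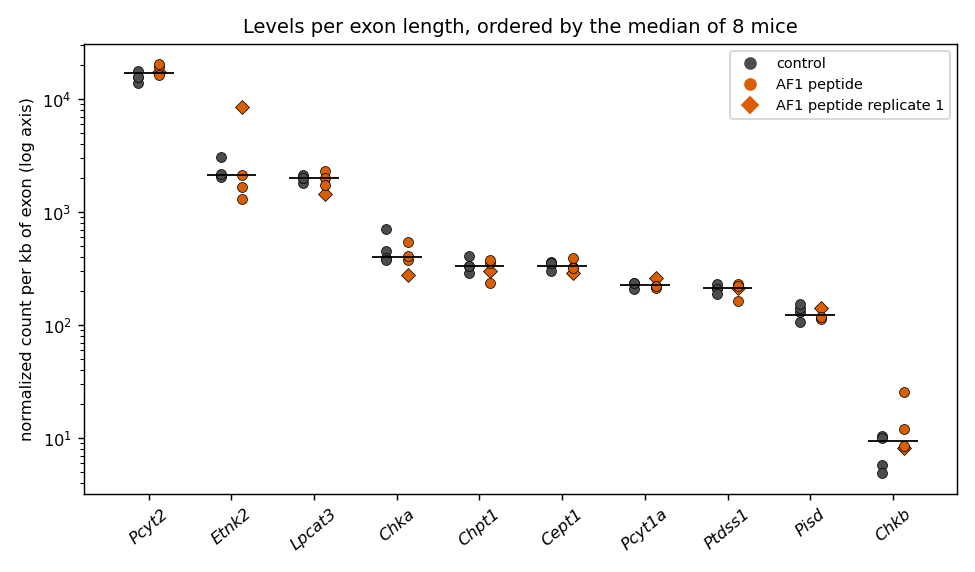
Normalized count per kb of exon (log axis) of the 10 genes, with 1 point for each of 4 control and 4 AF1 peptide-treated mice. Pcyt2 lies at 13923 to 20233 per kb, above every other gene, and AF1 peptide replicate 1 (diamond) lies alone at 8474 per kb for Etnk2.

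In these counts the paired enzymes among the 10 genes differed in level at the kinase and CTP-dependent steps, while Chpt1 and Cept1 did not. The ratio of Pcyt2 to Pcyt1a, per kb, was 58.9 to 85.0 in control mice, with medians of 66.9 in control and 80.1 in AF1 peptide-treated mice. Chka exceeded Chkb 37.9- to 77.8-fold in control and 14.6- to 47.0-fold in AF1 peptide-treated mice. That ratio is uncertain, since Chkb had 10 to 25 reads per library. Another gene, Gm44502, covers 81% of the exon bases of Chkb on the same strand, and the counting of shared reads is not known. Chpt1, a choline phosphotransferase, and Cept1, which accepts choline and ethanolamine, had like levels, with a ratio of 0.786 to 1.21 in control and 0.744 to 1.08 in AF1 peptide-treated mice. These ratios compare mRNA and not enzyme activity.

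Among the kinases, Chka, which phosphorylates choline and ethanolamine, had 1173, 1024, 1833 and 971 normalized counts in control replicates 1 to 4 and 720.4, 979, 1416 and 1053 in AF1 peptide replicates 1 to 4. Replicate 3 was the highest mouse of each group, and AF1 peptide replicate 1 lay below every control. The means were 1251 ± 398 (SD, n = 4) and 1042 ± 287 (SD, n = 4). Its log2 fold change was -0.26 (95% confidence interval -0.77 to 0.26, adjusted p = 0.828 in limma), -0.092 without AF1 peptide replicate 1 and -0.056 without control replicate 3.

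Chkb, the other choline kinase, was near the floor of these libraries. It had 9.89, 17.7, 17.3 and 8.37 normalized counts in control and 14, 43.8, 20.6 and 14.7 in AF1 peptide-treated mice, from 10 to 25 reads per library. The highest value, in AF1 peptide replicate 2, rests on 24 reads of the shallowest library (exact Poisson 95% interval 15.4 to 35.7 reads, counting error only). The difference in Chkb was 0.68 on the log2 scale (-0.24 to 1.59, adjusted p = 0.774 in limma), and 0.33 without that mouse. Without AF1 peptide replicate 1 it was 0.86. In GENCODE M21, Gm44502 covers 81% of the exon bases of Chkb on the same strand, and 43.7% of its 50-base transcript words are found in other genes too. How reads matching both genes were counted is not given in the sources used here, and the values of Chkb are uncertain for that reason.

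Etnk2 had the widest range of the 10 genes through 1 mouse, 6.48-fold from lowest to highest with AF1 peptide replicate 1 and 2.37-fold without it, where Chkb spanned 5.23-fold either way. Its normalized counts were 7869, 5411, 5184 and 5468 in control replicates 1 to 4 and 21532, 5373, 3321 and 4204 in AF1 peptide replicates 1 to 4. AF1 peptide replicate 1 was far above all others, replicate 2 was inside the control range, and replicates 3 and 4 were below every control. The first of these was 4.01 times the median of the other 7 mice, and 85 genes (0.532% of all tested) had a larger such ratio in that library. With all mice the log2 fold change was 0.11 (-0.96 to 1.167, adjusted p = 0.975 in limma), and 0.52 in edgeR. Without AF1 peptide replicate 1 it was -0.48 (-0.87 to -0.094, adjusted p = 0.473 in limma). Etnk2 was then the 1 gene of the 10 with an unadjusted p value under 0.05, and it was lower, against 5.48% of all genes tested lower, 4.58% higher and 10.1% in either direction without that mouse. No exon of another gene overlaps Etnk2 and none of its transcript words is shared. Pemt and Gpcpd1, described further on, were likewise highest in AF1 peptide replicate 1.

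The CTP-dependent enzymes include the steadiest gene. Pcyt1a, which activates phosphocholine, had 1153, 1182, 1049.6 and 1183 normalized counts in control and 1315, 1116, 1065 and 1098 in AF1 peptide-treated mice. Every mouse except AF1 peptide replicate 1 lay within the control range, and the coefficient of variation among control mice was 5.52%, the smallest of the 10. The log2 fold change of Pcyt1a was 0.0052 (-0.21 to 0.22, adjusted p = 0.994 in limma). Its sign turned with TMM factors (-0.0018), with equal library totals (-0.086), without AF1 peptide replicate 1 (-0.061) and without control replicate 3 (-0.035).

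Pcyt2, which activates phosphoethanolamine, had 29218, 26189.8, 33573 and 29565 normalized counts in control and 32781, 35864, 38058 and 30862 in AF1 peptide-treated mice. AF1 peptide replicates 2 and 3 were above every control mouse, and replicates 1 and 4 were inside the control range. The means were 29637 ± 3031 (SD, n = 4) and 34391 ± 3197 (SD, n = 4). On the log2 scale Pcyt2 differed by 0.22 (-0.099 to 0.53, adjusted p = 0.781 in limma), and by 0.16 to 0.28 with any single mouse left out, and by 0.12 with equal library totals. The interval excludes a 1.3-fold fall of Pcyt2 and includes a 1.3-fold rise.

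**Figure D2:**
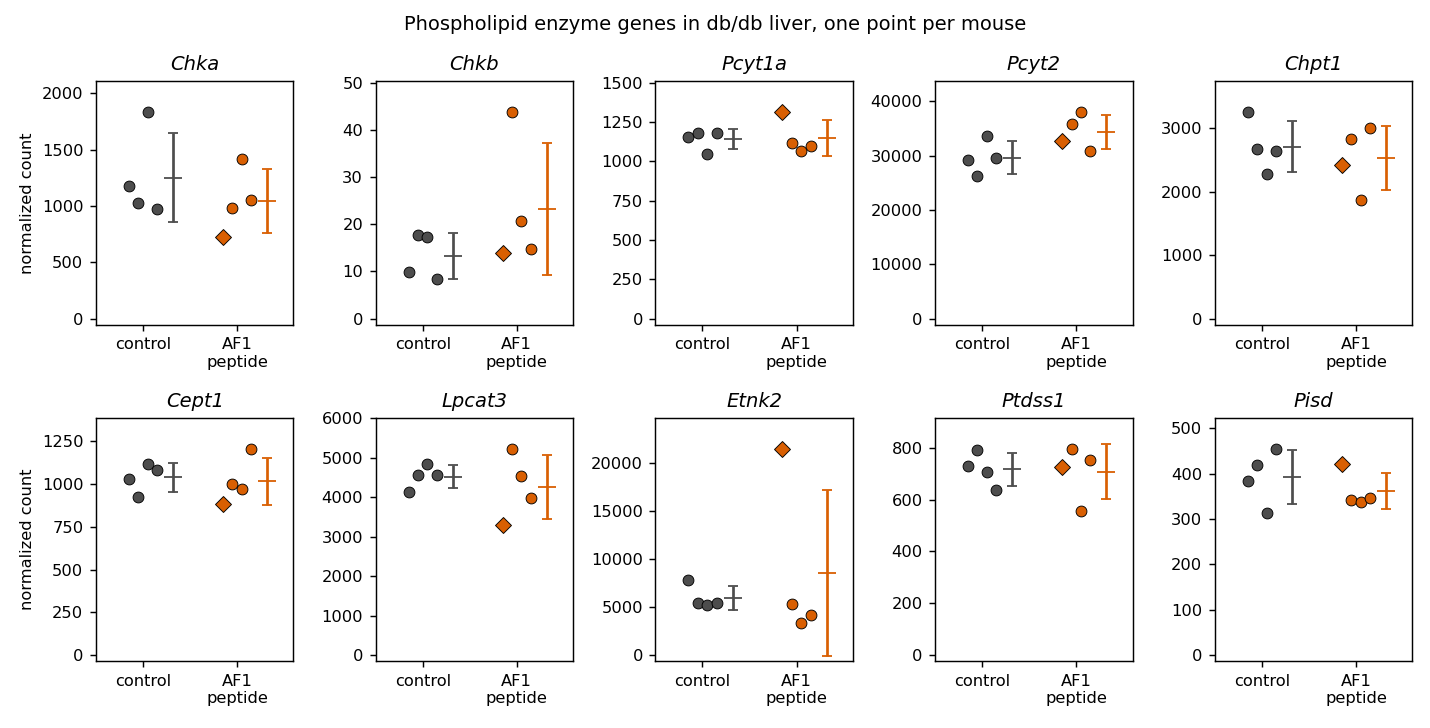
Normalized counts of the 10 genes in 4 control and 4 AF1 peptide-treated mice, with 1 point per mouse, a diamond for AF1 peptide replicate 1, and the mean ± SD beside the points. The groups overlap in all 10 panels, and the SD of 8657 for Etnk2 in AF1 peptide-treated mice goes with the 1 mouse at 21532.

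The phosphotransferases, which complete both phospholipids, overlapped between the groups. Chpt1 had 3255, 2665, 2279.7 and 2638 normalized counts in control and 2413, 2822, 1875 and 3004 in AF1 peptide-treated mice. Replicate 3 was the lowest mouse of each group, and Chpt1 had a log2 fold change of -0.11 (-0.47 to 0.24, adjusted p = 0.895 in limma). Cept1 had 1033, 924, 1117 and 1084 in control and 884, 1003, 970.4 and 1208 in AF1 peptide-treated mice. Here AF1 peptide replicate 1 was the lowest and replicate 4 the highest of all 8, with a log2 fold change of -0.038 (-0.29 to 0.22, adjusted p = 0.958 in limma). Without AF1 peptide replicate 1 the log2 fold change of Cept1 was 0.026. Dennd2d overlaps 25.2% of the exon bases of Cept1 on the opposite strand, and the strand setting of the counting is not given in the sources used here.

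In the phosphatidylserine branch, Ptdss1, which makes phosphatidylserine from phosphatidylcholine, had 728, 793, 708 and 639 normalized counts in control and 724, 796, 556 and 754 in AF1 peptide-treated mice. AF1 peptide replicate 3 was the lowest and replicate 2 the highest of the 8. Ptdss1 had a log2 fold change of -0.028 (-0.31 to 0.25, adjusted p = 0.975 in limma). Pisd, which turns phosphatidylserine into phosphatidylethanolamine, had 383, 419, 313 and 455 in control and 422, 342, 338 and 346 in AF1 peptide-treated mice. All treated mice lay inside the control range, with a log2 fold change of -0.11 (-0.41 to 0.19, adjusted p = 0.870 in limma). Without AF1 peptide replicate 1 the log2 fold change of Pisd was -0.19.

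Pisd has transcribed pseudogenes with rows of their own, which were looked at after their values were seen. Pisd-ps3 had 6476, 7012, 7648 and 6626 normalized counts in control and 7669.7, 10489, 9256 and 9250.4 in AF1 peptide-treated mice. Every treated mouse was above every control mouse, by the small step from 7648 to 7669.7, and 2.05% of all genes tested were separated in this direction. Pisd-ps3 was higher by 0.40 on the log2 scale (0.13 to 0.66, adjusted p = 0.763 in limma), with an unadjusted p value under 0.05 in all 8 fits without 1 mouse (0.33 to 0.48). Pisd-ps1 had 763 to 868 in control and 831 to 1039.6 in AF1 peptide-treated mice, a difference of 0.22 on the log2 scale (adjusted p = 0.763 in limma) that kept an unadjusted p value under 0.05 in 2 of those 8 fits. Pisd-ps2 was at 4.12 to 23.3 normalized counts. Of the 50-base words of Pisd transcripts, 18.5% occur in other genes, among them Gm20671, which covers 39.1% of its exon bases on the same strand, Pisd-ps2 (3.43% of the words) and Pisd-ps1 (2.64%). Pisd-ps3 was not analysed here for shared words, and the values of Pisd and its copies are uncertain where reads were split among them.

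Lpcat3, the remodelling acyltransferase, had 4137, 4557, 4835 and 4572 normalized counts in control and 3309.9, 5229, 4535 and 3974 in AF1 peptide-treated mice. The treated mice fell on both sides of the controls, replicates 1 and 4 below all of them and replicate 2 above. The means were 4525 ± 289 (SD, n = 4) and 4262 ± 816 (SD, n = 4). Lpcat3 had a log2 fold change of -0.10 (-0.41 to 0.20, adjusted p = 0.881 in limma), or 0.010 without AF1 peptide replicate 1. Nr1h3 encodes LXRα, the nuclear receptor known to induce Lpcat3, and had 2298 to 2474 in control and 2485 to 3316 in AF1 peptide-treated mice. The groups did not overlap for Nr1h3, but its log2 fold change of 0.17 (-0.068 to 0.41, adjusted p = 0.777 in limma) did not pass the unadjusted threshold, and was 0.075 without AF1 peptide replicate 1.

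**Figure D3:**
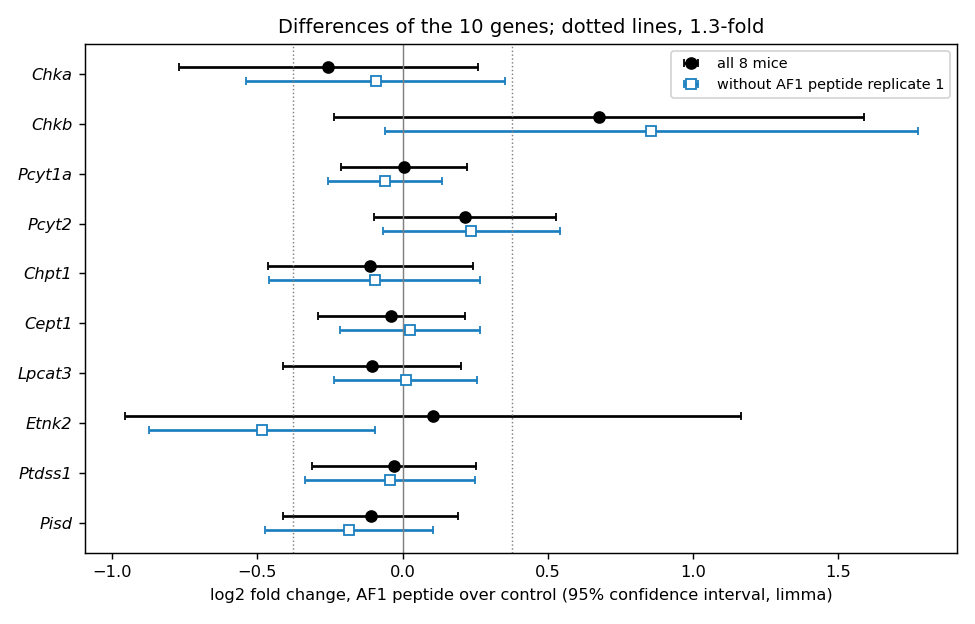
Log2 fold change (AF1 peptide over control) of the 10 genes with the 95% confidence interval of limma, for all 8 mice and without AF1 peptide replicate 1. Each interval over all mice includes 0, and Etnk2 moves from 0.11 to -0.48 without that mouse.

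The other genes of phospholipid metabolism were grouped in 8 lists with 78 genes, of which 75 were tested. At an unadjusted limma p value under 0.05, 8 of the 75 were lower and 1 was higher with AF1 peptide, against 3.03 and 3.16% of all genes tested, and the median log2 fold change was -0.063. The adjusted p value in limma was 0.763 for each of the 9, so none passed adjustment. Without AF1 peptide replicate 1, 11 were lower and 2 higher, where 5.48 and 4.58% of all genes tested were. In both directions together, 12% of the 75 passed with all mice, where 6.19% of all genes tested did. The lists were chosen with earlier results of these data known, which limits this comparison. Without control replicate 2, 3 of the 75 passed, and 5 without control replicate 4. These counts lie near the 3.38 and 4.92% of all genes tested in those fits. Every other fit without 1 mouse gave 6 to 13 of the 75, where 4.29 to 10.1% of all genes tested passed. The counts of single lists given below stand against the same 3.03% lower and 3.16% higher of all genes tested. Whether the lists differ from all genes was not tested.

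Of the other head-group enzymes (4 of 5 tested), 1 was lower. Selenoi, an ethanolamine phosphotransferase, had 749, 704, 599 and 561 normalized counts in control and 508, 579, 418 and 539 in AF1 peptide-treated mice, and 3 treated mice were below every control. The log2 fold change of Selenoi was -0.35 (-0.65 to -0.058), but without control replicate 1, control replicate 2 or AF1 peptide replicate 3 it missed the threshold, with -0.28, -0.31 and -0.26. Pemt had 7629, 6389, 6927 and 7756 in control and 10203, 6399.9, 6430.4 and 6467 in AF1 peptide-treated mice. AF1 peptide replicate 1 was above all others, the rest of its group lay inside the control range, and the log2 fold change of Pemt was 0.013 with that mouse, -0.15 without it and -0.078 with equal library totals.

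In ether phospholipid synthesis, the route to plasmalogens, 2 of 5 genes were lower. Far2, which reduces fatty acyl-CoA to fatty alcohols, had 87.4, 110.3, 65.9 and 141 normalized counts in control and 23.3, 56.6, 79.1 and 38.6 in AF1 peptide-treated mice, with 3 treated mice below every control. Far2 was lower by a log2 fold change of -1.10 (-1.90 to -0.30), -0.79 without AF1 peptide replicate 1, and passed the threshold in 8 of 8 fits without 1 mouse. Tmem189, the desaturase that forms the vinyl-ether bond of plasmalogens, had 969.6 to 1256 in control and 745 to 1028 in AF1 peptide-treated mice. Its log2 fold change was -0.35 (-0.64 to -0.056), and it passed in 4 of those 8 fits. Without AF1 peptide replicate 1, the lowest mouse for Tmem189, it was -0.26 and missed the threshold. Gnpat, Agps and Far1 had log2 fold changes of -0.043, 0.034 and 0.063.

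Among 20 genes listed under phospholipid breakdown, 2 were lower and 1 was higher. Pla2g12b, listed as a relative of the secreted phospholipases, had 1117, 1103, 1039.9 and 1003 normalized counts in control and 875, 880.4, 763 and 977 in AF1 peptide-treated mice. Whether Pla2g12b acts in phospholipid breakdown was not tested. Its groups did not overlap, as in 1.85% of all genes tested in this direction, and its log2 fold change of -0.29 (-0.51 to -0.071) passed in 8 of 8 fits without 1 mouse. Napepld, which releases N-acylethanolamines, had 34.6 to 67.0 in control and 12.8 to 40.4 in AF1 peptide-treated mice. Its log2 fold change was -0.83, and -0.79 without AF1 peptide replicate 1, where it missed the threshold. Napepld passed in 3 of the 8 fits without 1 mouse. It failed with the replicate block, in edgeR, without the intensity trend and with its own variance. Gpcpd1, which splits glycerophosphocholine, was the gene that was higher, with 1254, 1358, 1192 and 1928 in control and 3192, 1996, 1718 and 1557 in AF1 peptide-treated mice. AF1 peptide replicate 1 was the highest, and the log2 fold change of Gpcpd1 was 0.53 (0.034 to 1.03) with it and 0.31 without it. Gpcpd1 passed in 3 of the 8 fits without 1 mouse, failing without AF1 peptide replicates 1 or 2 or control replicates 1, 2 or 3, and it also failed with equal library totals (0.44), without the intensity trend and with its own variance.

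Of 11 genes of choline and ethanolamine supply and use, 1 was lower. Chdh, the mitochondrial choline dehydrogenase on the way to betaine, had 2269, 3068, 2235 and 2592 normalized counts in control and 1882, 2184, 1975 and 2120.4 in AF1 peptide-treated mice, without overlap. Its log2 fold change was -0.31 (-0.57 to -0.048), and it passed in 5 of the 8 fits without 1 mouse. Of 13 transport and export genes 2 were lower. Tmem30a, a subunit of phospholipid flippases, had 1351, 1226, 1178 and 1219 in control and 1158, 1058, 791 and 1121 in AF1 peptide-treated mice, without overlap. It differed by -0.28 on the log2 scale (-0.56 to -0.0024) and passed in 2 of the 8 fits without 1 mouse. AF1 peptide replicate 3 was its lowest mouse, and without it the difference was -0.16 and no longer passed.

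In the remaining 3 lists no gene passed the unadjusted threshold with all mice. Without AF1 peptide replicate 1, Cds2 (-0.22) and Nr5a2 (-0.27) were lower and Nr1h4 (0.30) was higher, named here after their values were seen. The smallest p value belonged to Mboat7 among 6 tested lysophospholipid acyltransferases (log2 fold change -0.067), to Cdipt, the phosphatidylinositol synthase, among 8 genes of the CDP-diacylglycerol branch (-0.11), and to Nr1h3 among 8 regulators. Markers of other liver cells were read beside these genes. All 7 Kupffer and macrophage markers had log2 fold changes below 0 and 1 of them, Adgre1, passed (-0.66). Their summed normalized count was 5477 to 6875 in control and 2506 to 6547 in AF1 peptide-treated mice, lowest in replicate 1. Without that mouse 0 of the 7 passed and the direction was not shared, with 3 below 0, 4 above 0, a median of 0.048 in place of -0.28, and Clec4f at 0.22 in place of -0.084. Of 6 stellate cell markers Dcn was lower (-0.42), and none of 6 endothelial, 5 bile duct, 5 lymphocyte and neutrophil, 5 red blood cell, 1 pancreas and 1 adipocyte markers tested passed. All 6 endothelial markers were below 0 (median -0.12, and -0.15 without AF1 peptide replicate 1). So were all 5 red blood cell markers (-0.23 and -0.18). Below 0 were also 4 of 6 stellate cell, 4 of 5 lymphocyte and neutrophil and 2 of 5 bile duct markers. Cidec, the only gene of the adipocyte list that was tested, was at 243 in AF1 peptide replicate 1 and 3542 to 4768 in the others. A single gene does not show a change in adipocytes. The part of these cells in the results was not tested.

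**Figure D4:**
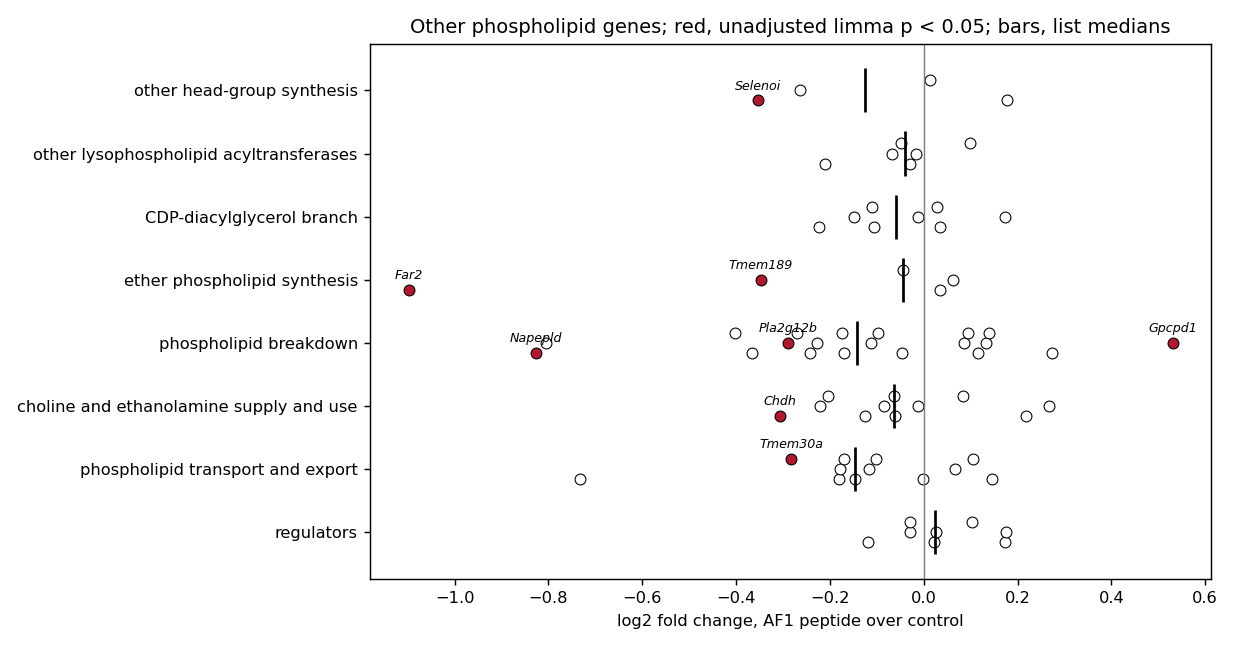
Log2 fold change (AF1 peptide over control) of the 75 tested genes in 8 lists of phospholipid metabolism except 1 that is not shown, with 1 point per gene and a bar at the median of each whole list. Genes with an unadjusted limma p value under 0.05 are red, 7 below 0 and Gpcpd1 above, and Far2 lies lowest at -1.10.

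For Chkb and Pcyt2, the members with the smallest p values, the genes most alike across the 8 mice were sought among 12434 genes that averaged 50 or more normalized counts, by the mean absolute difference of centred log2 values. Top3b, Fastk and Sbno2 were nearest to Pcyt2, at 0.0341, 0.0356 and 0.0366 log2 units. Ghdc, Ftl1-ps2 and Gm17634 were nearest to Chkb, at the larger distances of 0.263, 0.268 and 0.274 log2 units.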

How the data were processed

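TRIzol RNA of frozen liver was made into stranded mRNA libraries. Per the study's methods and the submitters' notes, reads were trimmed with Trim Galore 0.6.7, aligned with HISAT2 (mm39), sorted with SAMtools 1.17 and counted by GenomicAlignments. The annotation, strand setting and normalization tool are not given in the sources used here. The authors deposited 1 signal per gene and library, a normalized count, without pooling replicates. Its steps gave whole reads for 100% of 172256 values (tolerance 0.01 read), which served the count models. Groups came from the labels. Chi-square per degree of freedom between replicates was 16.1 to 344, so no library was a duplicate.

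On log2 of the normalized count plus 1, limma 3.58.1 (R 4.3.3, intensity trend) compared the groups, with Benjamini-Hochberg adjustment. The scale understates fold changes of low genes. A call was an unadjusted p value under 0.05, the threshold in the study's methods. The script was tested on simulated data. Alternatives were other pseudocounts, filters, scalings and variance models, a 1.3-fold minimum, a replicate block, edgeR 4.0.16 (1036 genes called) and DESeq2 1.42.0 (1008, and no p value for Etnk2), and each mouse left out. Members and lists were chosen with earlier results of these data known. Named were the members, Pemt, each called gene of the other lists (or that with the smallest p value) and the 3 genes nearest to each of 2 members. Tf, Ly6g, Prss2, Cpa1, Pnlip, Ctrb1, Adipoq, Lep and Plin1 were not analysed here. The values of 1 called transport gene are not reported here.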

Additional observations from a re-analysis of the deposited data

Results flagged for a closer look

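For each of 31 named genes, the highest and lowest mouse of each group of 4 were set against the other mice of the group. A mouse stood apart where its gap to the nearest mouse, as a part of the group's range, passed Dixon's critical value at the 95% level. That was so in 6 of 62 groups, where chance gives about 1 in 20, or 3.1. In 4 of them it was AF1 peptide replicate 1, the highest treated mouse for Etnk2 (gap over range 0.887, 21532 normalized counts), Pisd (0.899, 422), Pemt (0.982, 10203) and Nr1h3 (0.904, 3316). Control replicate 1 was the highest control mouse for Etnk2 (0.894, 7869), and AF1 peptide replicate 4 the lowest treated mouse for Fastk (0.939, 2511). Values of the same library are not independent.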

How the results depend on the processing

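None of the 10 genes was called in either direction under any alternative that kept all mice, although Chkb could not be tested with 10 counts demanded in every mouse and Etnk2 had no p value in DESeq2. With 1 mouse left out, 0 to 1 was lower (Etnk2, without AF1 peptide replicate 1) and 0 were higher. The deviations of same-numbered mice from the means of their groups had correlations of 0.235, 0.0238, 0.216 and -0.064. Mice of different numbers had -0.272 to 0.137, so that the pairs numbered 1 and 3 lay above that range. The labels give the numbers as biological replicates, and whether they pair the mice cannot be told from these values. With the number as a replicate block, 0 of the 10 were called, 647 of all genes tested were lower and 597 higher (484 and 506 without the block), and 10 of the other phospholipid genes were called (9 without). Equal library totals gave 769 lower and 129 higher genes, so that 14.4% of calls were higher against 51.1%, and turned Pcyt1a to -0.086 and Pemt to -0.078, and TMM factors turned Pcyt1a to -0.0018. Calls of more than 1.3-fold numbered 304 lower and 286 higher, with 3 of the other phospholipid genes, and 5 of the latter were called with each gene's own variance. Without 1 mouse, 255 to 876 genes were lower and 285 to 732 higher, fewest without control replicate 2 and most without AF1 peptide replicate 1, and 3 to 13 of the other phospholipid genes were called. The log2 fold change then ran from -0.061 to 0.040 for Pcyt1a, -0.20 to 0.025 for Chpt1, -0.12 to 0.026 for Cept1, -0.21 to 0.010 for Lpcat3, -0.48 to 0.42 for Etnk2, -0.089 to 0.083 for Ptdss1, -0.15 to 0.071 for Pemt and -0.12 to 0.0069 for Mboat7. Napepld missed the threshold under the replicate block (adjusted p = 0.618 in limma) and in edgeR. The cause was not tested. Of 339 values of named genes with all mice kept, 310 kept their direction and side of the threshold. The filters, the limma variance models and the replicate block leave the fold change as it was. Under these only the side of the threshold could change, so the count is no measure of how steady the directions are. Depth limits Chkb and Napepld, whose lowest counts were 10 and 7 reads.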

Other observations

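Some isoenzymes fell under the filter and were not tested. Pcyt1b, a paralog of Pcyt1a, had 2.16 to 8.24 normalized counts in control and 3.65 to 9.33 in AF1 peptide-treated mice. Mboat1 and Mboat2, lysophospholipid acyltransferases, reached at most 8.24 and 4.94 in any mouse.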
